A study of Mus musculus with 6 samples.

Results

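Cyclin-dependent kinase (CDK) inhibitors of the CIP/KIP family (Cdkn1a, Cdkn1b and Cdkn1c, encoding p21, p27 and p57) and of the INK4 family (Cdkn2a, Cdkn2b, Cdkn2c and Cdkn2d, encoding p16 with p19Arf, p15, p18 and p19Ink4d) were followed in mouse multiple myeloma cells given insulin-like growth factor 1 (IGF-1). The members were taken as every probe set that the array annotation assigns to 1 of these 7 genes and to no other. This gave 9 probe sets for the 7 genes, out of 22626 probe sets for 12393 named genes. The control group was 3 arrays of cells held 12 h in serum-free medium without IGF-1, and the IGF-1 group was 3 arrays of cells that received IGF-1 at 100 ng/ml for 12 h, also without serum. Serum withdrawal was therefore common to both groups. The labels call the cells malignant plasma cells from bone marrow, and they name neither a strain nor a line. Nor do they say that replicates came from different cultures or mice, and p-values therefore measure only sample-to-sample spread, part or all of which may be technical.

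CIP/KIP proteins bind cyclin-CDK complexes broadly and block those that contain CDK2, while at low occupancy p21 and p27 also help cyclin D and CDK4 or CDK6 assemble. INK4 proteins bind CDK4 and CDK6 alone and keep D-type cyclins from activating them, so that the retinoblastoma protein stays unphosphorylated and S phase entry is held back. In cells of the B lineage, p18 is known for the cell cycle exit that goes with plasma cell differentiation, and loss of p18 or silencing of p15 and p16 has been described in myeloma. p27 is known chiefly as a protein that mitogens remove by degradation, so its mRNA need not follow its protein.

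Cdkn1a, Cdkn2a and Cdkn2c each have 2 annotated starts, and Cdkn2b lies beside Cdkn2a. The 250 bases before the annotated starts of Cdkn1a, Cdkn1b, Cdkn2a and Cdkn2b are shown because these 4 genes carried the changes described below. Sequences are from RefSeq, build GRCm38.p6, on the strand of the gene and 5′ to 3′. Capitals mark matches to GGGCGG (the GC box that Sp1 family factors bind), TTTGGCG or TTTCCCG (E2F), or a p53 element, each on either strand.
Cdkn1a, upstream start (chr17:29090729-29090978, plus strand): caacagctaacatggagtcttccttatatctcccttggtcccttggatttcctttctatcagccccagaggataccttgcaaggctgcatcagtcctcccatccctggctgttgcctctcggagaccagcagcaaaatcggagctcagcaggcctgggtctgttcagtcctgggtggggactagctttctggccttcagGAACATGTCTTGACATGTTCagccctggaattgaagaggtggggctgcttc
Cdkn1a, downstream start (chr17:29093519-29093768, plus strand): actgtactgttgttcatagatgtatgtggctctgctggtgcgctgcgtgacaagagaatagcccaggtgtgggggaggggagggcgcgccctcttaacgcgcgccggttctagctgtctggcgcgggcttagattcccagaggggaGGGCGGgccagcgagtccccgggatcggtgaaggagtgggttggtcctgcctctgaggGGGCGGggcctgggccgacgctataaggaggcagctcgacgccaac
Cdkn1b (chr6:134920151-134920400, plus strand): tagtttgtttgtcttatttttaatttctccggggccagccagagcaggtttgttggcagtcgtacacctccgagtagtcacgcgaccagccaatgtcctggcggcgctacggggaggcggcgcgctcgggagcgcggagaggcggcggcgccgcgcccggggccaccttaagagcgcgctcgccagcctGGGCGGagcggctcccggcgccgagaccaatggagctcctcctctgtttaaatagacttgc
Cdkn2a, upstream start (chr4:89294620-89294869, minus strand): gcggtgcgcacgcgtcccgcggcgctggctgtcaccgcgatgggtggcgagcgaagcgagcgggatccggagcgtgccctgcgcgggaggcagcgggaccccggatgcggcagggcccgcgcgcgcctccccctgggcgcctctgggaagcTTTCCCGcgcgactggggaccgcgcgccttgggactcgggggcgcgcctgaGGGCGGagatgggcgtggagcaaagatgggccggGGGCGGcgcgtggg
Cdkn2a, downstream start (chr4:89282193-89282442, minus strand): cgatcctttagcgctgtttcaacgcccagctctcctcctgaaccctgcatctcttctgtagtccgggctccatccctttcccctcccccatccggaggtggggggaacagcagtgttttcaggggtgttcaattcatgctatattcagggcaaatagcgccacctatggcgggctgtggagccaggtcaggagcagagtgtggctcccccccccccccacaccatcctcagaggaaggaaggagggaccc
Cdkn2b (chr4:89311033-89311282, minus strand): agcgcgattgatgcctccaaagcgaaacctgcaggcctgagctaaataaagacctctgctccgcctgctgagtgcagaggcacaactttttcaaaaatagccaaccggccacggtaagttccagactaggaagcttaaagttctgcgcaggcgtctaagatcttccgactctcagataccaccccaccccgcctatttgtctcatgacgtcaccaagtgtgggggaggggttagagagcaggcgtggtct

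The upstream Cdkn1a start had a match to the p53 element, taken as a pair of adjoining copies of the p53 repeat with at most 1 base off the consensus. It was the run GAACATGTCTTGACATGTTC, whose first base lies 51 bases before the start. Of 32851 promoter windows of this length in the table, 25 (0.0761%) held such a match, and this motif was added after the promoters had been read. The downstream Cdkn1a start had GC boxes beginning 104 and 46 bases before it, the upstream Cdkn2a start (the one that gives p19Arf) had them at 48 and 14 bases and an E2F match at 99 bases, and Cdkn1b had 1 GC box at 61 bases. In all, 5 of the 9 starts listed for 6 members held a GC box, against 32.7% of all windows. E2F letters occurred in 3.92% of all windows. No start of a member held TATAAA (12.4% of windows), TGTTTAC of FOXO factors (3.17%) or the E-box CACGTG (6.02%). A match is a description of letters and shows no binding. Each Cdkn2a and Cdkn1a signal is given for the gene and probe positions were not used here, so p16 and p19Arf, and the Cdkn1a starts, could not be told apart.

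Signals are linear MAS5 intensities that the authors scaled to 1 common trimmed mean. They were compared as log2(signal + 15.6), which understates the change of dim probe sets, and each adjusted p is from limma with Benjamini-Hochberg adjustment over 11313 probe sets whose mean signal exceeded 53.6. Of the 9 member probe sets 8, covering 6 genes, passed this filter. Among the 8, 4 were called higher with IGF-1 at an adjusted p below 0.05 (Cdkn1a with both probe sets, Cdkn2a and Cdkn2b), against 6.82% of all probe sets tested. The 1 called lower was a probe set of Cdkn1b, against 8.28%. The groups did not overlap for any of the 8, with 6 higher (16.1% of all probe sets) and 2 lower (18.7%). The median log2 difference was 0.31 over the 6 member genes, each represented by its brightest tested probe set, and -0.01 over all 6895 genes tested.

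**Figure D1:**
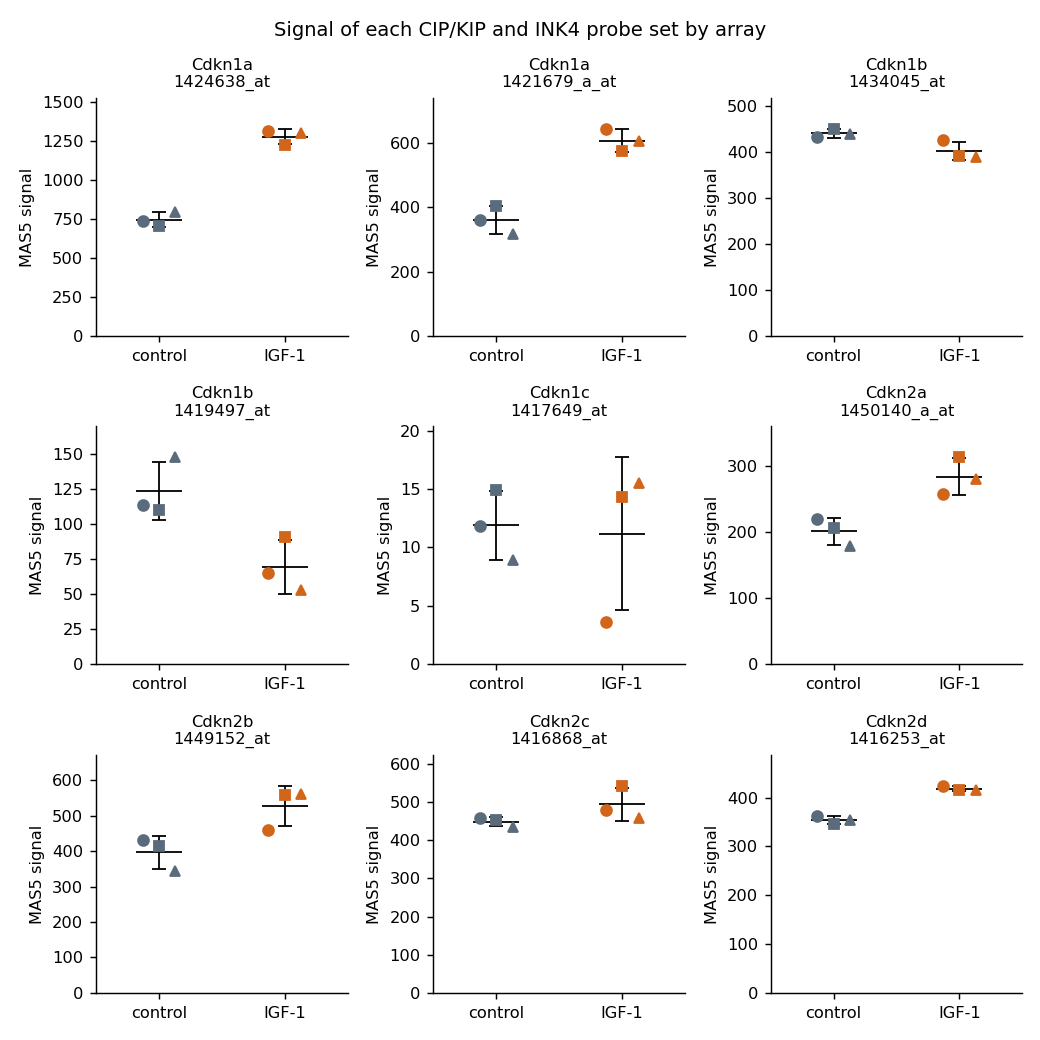
MAS5 signal (linear, arbitrary units) of each of the 9 member probe sets in the 3 control and 3 IGF-1 arrays, with the brighter probe set first for Cdkn1a and Cdkn1b. Points are arrays, with circles, squares and triangles for replicates 1, 2 and 3, the long bar is the mean and the whisker the SD (n = 3). The 3 IGF-1 points of Cdkn1a lie between 1224 and 1313 in the brighter probe set and above all control points, while Cdkn1c stays below 16 in both groups.

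Cdkn1a encodes p21, the main inhibitor induced by p53 and also by mitogen signalling, and rose with IGF-1 in both of its probe sets. The brighter probe set read 738, 703 and 799 in control arrays 1 to 3 and 1313, 1224 and 1303 in IGF-1 arrays 1 to 3. All 3 IGF-1 arrays lay far above every control, and the spread within each group was small beside the gap. The mean rose from 746 ± 48.5 to 1280 ± 48.7 (SD, n = 3), 1.7-fold, with a log2 difference of 0.77 ± 0.09 (SE; 95% interval 0.57 to 0.96; limma adjusted p = 0.00067). The other probe set gave 361, 405 and 319 in controls and 644, 575 and 605 with IGF-1. Again no IGF-1 array reached down to a control, and this probe set rose by 0.73 ± 0.11 (limma adjusted p = 0.0025). The responses of the probe sets differed by 0.04 (exact permutation test, two-sided, p = 0.7), so both readings of the gene gave about the same size. The call of each probe set held in every alternative run for it.

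Cdkn1b encodes p27, which binds cyclin E and CDK2 and restrains resting cells. Its brighter probe set read 431, 449 and 439 in control arrays and 424, 391 and 389 in IGF-1 arrays. The IGF-1 arrays lay just below the controls, with a log2 difference of -0.13 ± 0.09 (95% interval -0.33 to 0.07; limma adjusted p = 0.39), which did not pass and was 0.15 when arrays were scaled to hybridization controls. The dimmer probe set read 113, 110 and 148 in controls and 64.9, 91.1 and 53.4 with IGF-1. This probe set fell from 124 ± 20.8 to 69.8 ± 19.3, a log2 difference of -0.72 ± 0.18 (95% interval -1.11 to -0.33; limma adjusted p = 0.023). Relative to their means, its arrays varied more within each group than those of any other tested member. The call was lost when the third control array or the first or the third IGF-1 array was left out (limma adjusted p of 0.080, 0.064 and 0.075 in that order), with no filter (adjusted p = 0.081) and with scaling to hybridization controls (-0.48, adjusted p = 0.067). The probe sets thus disagreed in size: the response of the brighter one lay 0.59 above that of the dimmer one, without overlap between groups (exact permutation test, two-sided, p = 0.1, the smallest that 3 against 3 arrays allow).

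Cdkn1c encodes p57, an imprinted inhibitor active mainly in development. Its probe set read 11.8, 14.9 and 8.97 in control arrays and 3.66, 14.3 and 15.5 with IGF-1, below the filter in every array. The groups overlapped fully, and the gene was not tested. Fitted without a filter, its log2 difference was -0.07 ± 0.20 (95% interval -0.53 to 0.40; limma adjusted p = 0.91).

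Cdkn2a, whose transcripts encode p16 and, in another reading frame, the MDM2 inhibitor p19Arf, read 219, 206 and 179 in control arrays and 258, 313 and 281 with IGF-1. Every IGF-1 array exceeded every control. The signal rose from 201 ± 20.4 to 284 ± 27.7, a log2 difference of 0.47 ± 0.12 (95% interval 0.21 to 0.72; limma adjusted p = 0.023). Cdkn2b, encoding p15, the inhibitor known for its induction by TGF-beta, read 430, 416 and 343 in controls and 461, 557 and 562 with IGF-1. IGF-1 1 was the array nearest to the controls and still above them. The gene rose from 396 ± 46.6 to 527 ± 57.1, a log2 difference of 0.40 ± 0.12 (95% interval 0.14 to 0.66), and its limma adjusted p of 0.047 lay just inside the threshold. The Cdkn2a call was lost when array 2 or 3 of either group was left out (adjusted p 0.061 to 0.091), and with no filter (adjusted p = 0.055). The Cdkn2b call was lost when any array except the first IGF-1 array was left out (adjusted p 0.050 to 0.15), and also with no filter, a filter at the 25th percentile, quantile normalization or no intensity trend (adjusted p 0.050 to 0.10).

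Cdkn2c, encoding p18, the INK4 protein of plasma cell differentiation, read 459, 454 and 435 in control arrays and 480, 542 and 459 with IGF-1. IGF-1 3 matched the highest control to within 1 unit of signal, and IGF-1 2 stood highest. The log2 difference of 0.13 ± 0.10 (95% interval -0.08 to 0.34; limma adjusted p = 0.41) did not pass. Cdkn2d, encoding p19Ink4d, which oscillates with the cell cycle, read 363, 346 and 354 in controls and 424, 415 and 416 with IGF-1. The IGF-1 arrays all lay above the controls by more than the spread within either group, yet the log2 difference of 0.23 ± 0.09 (95% interval 0.04 to 0.43; limma adjusted p = 0.11) did not pass after adjustment. All 4 INK4 genes had positive differences with the deposited scaling, of which only Cdkn2a and Cdkn2b passed, and with quantile normalization. The share of positive differences over all genes was not computed. The differences were positive with scaling to hybridization controls too, but that scaling put the median of all probe sets at 0.25, so a positive sign there says little.

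**Figure D2:**
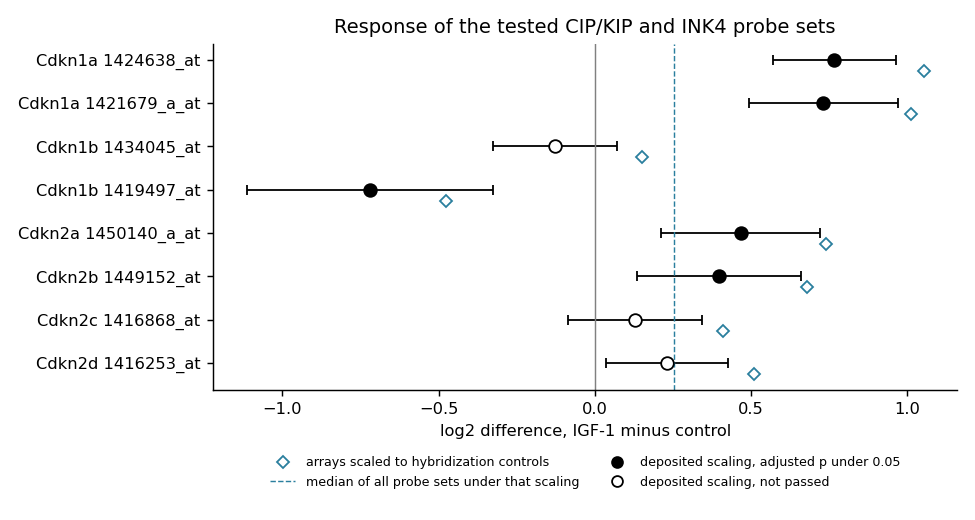
Log2 difference (IGF-1 minus control) of each tested member probe set, with its 95% interval as a whisker. Filled circles passed an adjusted p of 0.05 and open ones did not. Diamonds give the value with arrays scaled to hybridization controls, and the dashed line is the median of all probe sets under that scaling (0.25). Cdkn1b is the gene whose brighter probe set changes side, from -0.13 to 0.15.

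The deposited scaling takes the total signal of all arrays as equal. Spiked bacterial hybridization controls were brighter in control arrays (0.03 to 0.31 log2 units above their mean over all arrays) than in IGF-1 arrays (-0.20 to -0.06). Scaling to them moved the median of all probe sets up by 0.26 and turned the split of calls from 772 higher and 937 lower into 2740 higher and 242 lower. Relative to that median the members kept their order, with 0.80 for Cdkn1a, 0.49 for Cdkn2a, 0.43 for Cdkn2b, 0.26 for Cdkn2d, 0.16 for Cdkn2c and -0.10 for Cdkn1b. Cdkn2c and Cdkn2d passed the threshold under that scaling (limma adjusted p = 0.037 and 0.016).

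Differences between members within the same array do not depend on how arrays are scaled, apart from the pseudocount. Of the 15 pairs of tested members, 10 had groups without overlap. The pairs share genes and are not independent of each other. The share of such pairs among all genes was not computed, so whether this count is unusual was not tested. The response of Cdkn1a exceeded that of Cdkn1b, its CIP/KIP relative, by 0.89, that of Cdkn2c by 0.64 and that of Cdkn2d by 0.54. The response of Cdkn1b was lower than those of Cdkn2a by 0.59, Cdkn2b by 0.53, Cdkn2d by 0.36 and Cdkn2c by 0.26. Each of these had p = 0.1 by the exact permutation test (two-sided), the smallest the design allows, and 0.15 adjusted over the 15 pairs, so none passed. The adjoining genes Cdkn2a and Cdkn2b differed by 0.07 with overlapping groups (exact permutation p = 0.3, adjusted 0.3), and Cdkn1a exceeded them by 0.30 and 0.37, also with overlap (exact permutation p = 0.2, adjusted 0.25). Placed by response, Cdkn1a came first, followed by Cdkn2a, Cdkn2b, Cdkn2d, Cdkn2c and Cdkn1b. In that order Cdkn1a with Cdkn2a, Cdkn2a with Cdkn2b, Cdkn2b with Cdkn2d and Cdkn2d with Cdkn2c overlapped between groups, and Cdkn2c with Cdkn1b did not.

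**Figure D3:**
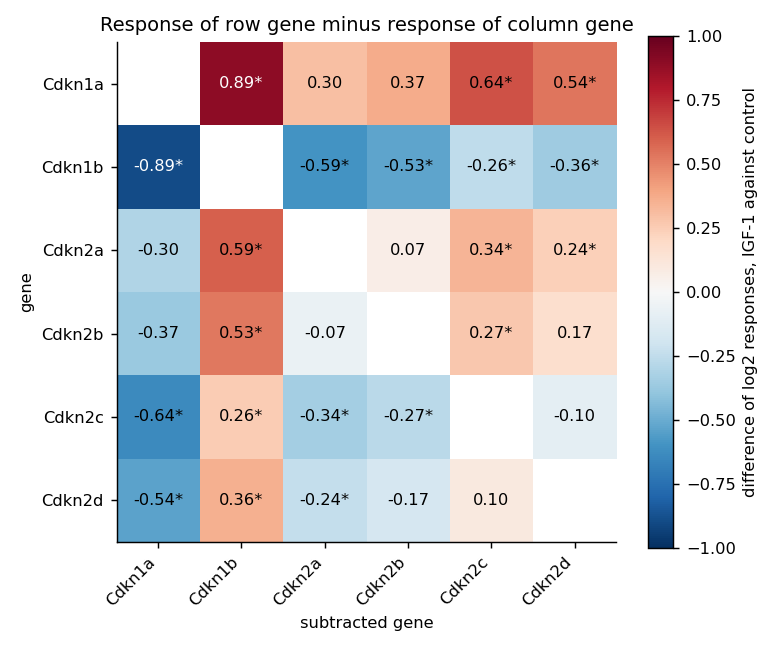
Difference of log2 responses (response of the row gene minus response of the column gene) for the 6 tested members, from within-array differences of their brightest probe sets. Asterisks mark the 10 of 15 pairs whose control and IGF-1 arrays did not overlap, a count with no share over all genes beside it. The row of Cdkn1a is positive throughout and the row of Cdkn1b negative throughout.

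Of 12 listed cyclins and CDKs, the partners that these inhibitors bind, 11 had a probe set and 9 were tested, of which 4 rose, 0 fell and 5 did not pass, against 7.05% and 8.05% of all genes called higher and lower. Those that rose were Ccna2 of S and G2 phase (546 ± 21.1 to 824 ± 73.0; 0.58 ± 0.10), the D-type cyclins Ccnd2 and Ccnd3 (0.54 ± 0.10 and 0.51 ± 0.10) and Ccne1, the cyclin E1 partner of CDK2 (0.51 ± 0.12, limma adjusted p = 0.019, which became 0.062 when the first IGF-1 array was left out). Ccnd2 passed in 1 of 5 tested probe sets. The kinase transcripts did not pass, with 0.30 ± 0.10 for Cdk4 (limma adjusted p = 0.064, although 1 of its 3 probe sets passed), 0.24 ± 0.09 for Cdk1 and -0.08 ± 0.10 for Cdk2 (0.19 with scaling to hybridization controls). Under that scaling Cdk4 (0.58) and Cdk1 (0.52) passed. Cdk6, the other INK4 target, lay below the filter. The list median was 0.30.

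Downstream of the kinases, 9 of 13 listed pocket protein and E2F genes were tested (10 had a probe set), of which 1 rose and 1 fell, against 7.05% and 8.05% of all genes. Both counts are near that background. E2f4, an E2F that represses with pocket proteins in resting cells, rose from 160 ± 7.57 to 289 ± 15.1 (0.79 ± 0.10, limma adjusted p = 0.0012). Rb1, the retinoblastoma protein, fell from 584 ± 52.3 to 412 ± 39.8 (-0.49 ± 0.11, limma adjusted p = 0.015). That call was lost when the second array of either group or the third IGF-1 array was left out (adjusted p up to 0.058) and with scaling to hybridization controls (-0.21). The other 7 did not pass, among them E2f8 (0.51 ± 0.16), E2f1 (-0.07 ± 0.16, and 0.16 with hybridization controls) and the p107 gene Rbl1 (0.26 ± 0.11).

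The list for the turnover of CIP proteins held 15 symbols, of which Skp1a is an older one for Skp1. Of these 13 were tested, with 1 that rose, 0 that fell and 12 that did not pass. Among all genes 7.05% were called higher and 8.05% lower. The count of genes that rose is near that background. Cks1b, the cofactor with which the ligase subunit SKP2 recognises phosphorylated p27, rose from 1234 ± 62.7 to 1580 ± 57.8 (0.35 ± 0.08, limma adjusted p = 0.020) with both of its probe sets passing. That call held only when the first control array or the third IGF-1 array was the one left out (adjusted p otherwise up to 0.077). Skp2 itself read 64.3 ± 2.59 and 61.3 ± 12.3 (-0.07 ± 0.16, and 0.16 with scaling to hybridization controls). Rnf123 of the KPC ligase, which acts on p27 in G1, had a difference of -0.36 ± 0.12 (limma adjusted p = 0.065). Cul4b (-0.40 ± 0.12, limma adjusted p = 0.052) and Ddb1 (-0.25 ± 0.09, limma adjusted p = 0.072) did not pass either. With scaling to hybridization controls Rnf123 was at -0.10, Cul4b at -0.13 and Ddb1 at 0.03.

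Among 28 listed regulators of transcription of CIP and INK4 genes, 27 had a probe set and 21 were tested, of which 3 fell, 0 rose and 18 did not pass, against 8.05% of all genes called lower and 7.05% called higher. Myc, known to repress Cdkn1a and Cdkn2b together with the zinc finger protein Zbtb17 (Miz-1), read 753 ± 92.5 in controls and 308 ± 23.3 with IGF-1, a fall of -1.24 ± 0.11 on the log2 scale (limma adjusted p = 0.00014), while Zbtb17 did not pass (0.17 ± 0.13). Foxo1, an activator of Cdkn1b and Cdkn1a, and Klf6, an activator of Cdkn1a, fell too (-0.47 ± 0.14 and -0.48 ± 0.13), with 1 of 3 probe sets each. Both calls were lost without any 1 of 5 arrays (highest adjusted p 0.14 and 0.11) and under scaling to hybridization controls (-0.20 for each). The Polycomb genes Bmi1 and Ezh2, whose products silence the Cdkn2a locus, did not pass (-0.28 ± 0.11, but 0.01 with hybridization controls, and 0.13 ± 0.09). Other tested Polycomb genes did not pass either and went in both directions. Ring1 was at 0.46 ± 0.15 (limma adjusted p = 0.062), but passed with hybridization controls (0.69, adjusted p = 0.0078). Rnf2 was at -0.31 ± 0.12 (limma adjusted p = 0.093, and -0.04 with hybridization controls), Eed at -0.08 and Suz12 at 0.06. The list median was -0.20, and 0.07 with scaling to hybridization controls. Of 5 listed genes of the p19Arf arm, 4 were tested and 0 rose or fell, with Mdm2 at -0.27 ± 0.13 (0.01 with hybridization controls) and Npm1 at -0.15 ± 0.10 (0.14 with hybridization controls). The gene of this arm that was not tested was Trp53, which encodes p53 and is also a listed regulator. The annotation assigned no probe set to Trp53 alone. Probe sets with several symbols or none were not searched for it, so the p53 transcript was not followed here.

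**Figure D4:**
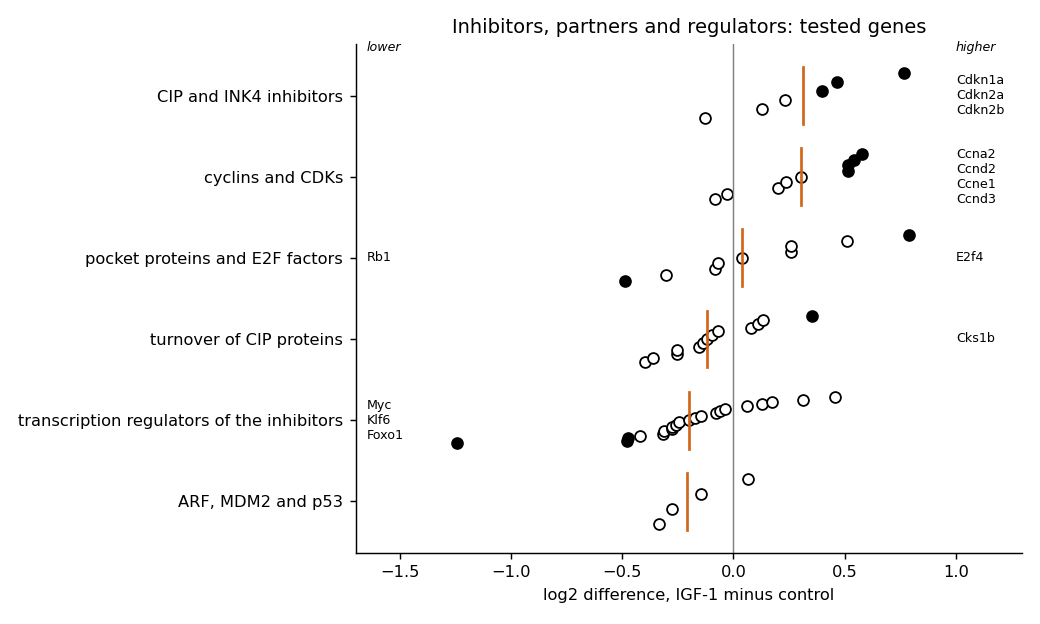
Log2 difference (IGF-1 minus control) of every tested gene of the member list and 5 related lists, 1 point per gene from its brightest tested probe set. Filled points passed an adjusted p of 0.05 and are named at the sides, in order of size, and orange bars are list medians. The medians are 0.31 for the inhibitors, 0.30 for cyclins and CDKs and -0.20 for the transcription regulators.

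The nearest annotated genes with a probe set were read beside each member. Mtap, which flanks Cdkn2a on the side away from Cdkn2b and encodes an enzyme of methionine salvage, read 571 ± 9.59 and 693 ± 20.1, with a log2 difference of 0.27 ± 0.08 (limma adjusted p = 0.055) that did not pass, although it did with scaling to hybridization controls (0.56). The 3 adjoining genes Mtap, Cdkn2a and Cdkn2b thus had differences of 0.27, 0.47 and 0.40, of which the latter 2 passed. On either side of Cdkn1a, the splicing factor gene Srsf3 fell by 0.45 (limma adjusted p = 0.018, with the call lost when array 2 of either group was left out, adjusted p up to 0.071), and BC004004 rose by 0.34 (limma adjusted p = 0.034), a call kept only with the second IGF-1 array left out (adjusted p otherwise up to 0.10). With scaling to hybridization controls Srsf3 no longer passed (-0.17). Beside Cdkn2c, Rnf11 was called lower (-0.41) and Faf1 higher (0.35), and each lost its call in 5 of the 6 sets with 1 array left out. With scaling to hybridization controls Rnf11 did not pass (-0.13, adjusted p = 0.53) and Faf1 did (0.63, adjusted p = 0.0028). Gpr19 and Ddx47 beside Cdkn1b (-0.13 and -0.19) and Kri1 beside Cdkn2d (-0.15) did not pass, and all 3 were above 0 with scaling to hybridization controls (0.13, 0.09 and 0.12).

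Genes with profiles most like a called member were found by the root mean square difference over the 6 arrays of log2 values set to the control mean, among 6796 genes. Nearest to Cdkn1a were Acly, which makes cytosolic acetyl-CoA (0.05), Anapc11, a subunit of the anaphase-promoting complex (0.05), and Sars, the seryl-tRNA synthetase (0.06). Their log2 differences were 0.77, 0.74 and 0.72. Nearest to Cdkn2a were Pvr (0.04), Mad2l2 (0.05) and Surf4 (0.06), and nearest to Cdkn2b were Tmem141 (0.03), Snapc2 (0.04) and Scmh1 (0.05). Among so many genes close matches arise readily, and nothing more is read from them.

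The plasma cell label was checked against its markers. The list held 10 symbols, of which Igj is an older one for Jchain. All 7 markers with a probe set were above the filter, among them Jchain (4443 ± 176 and 4311 ± 211), Xbp1 (4953 ± 385 and 4317 ± 110) and Sdc1 (852 ± 129 and 938 ± 84.4). With the deposited scaling their summed signal was 11291 to 12216 in control arrays and 10443 to 10881 in IGF-1 arrays. The median log2 difference of these markers was -0.19 with that scaling and 0.09 with scaling to hybridization controls, so the direction depended on the scaling. Tnfrsf17 and Slamf7, 2 of the 7, fell (-0.51 ± 0.10 and -0.62 ± 0.13, not past the threshold with scaling to hybridization controls). The brightest probe sets of Xbp1 and Irf4 did not pass, but 1 of 4 and 1 of 2 tested probe sets were called lower. Prdm1 did not pass (-0.39 ± 0.15, limma adjusted p = 0.095, and -0.12 with hybridization controls). No probe set of Sdc1 or Jchain was called. Neutrophil markers were also present, with 9 of 9 tested, 1 that fell (Ltf) and a summed signal of 25113 to 29987 in controls and 23301 to 25932 with IGF-1. The median difference of the neutrophil markers was -0.20, and 0.09 with scaling to hybridization controls. Of 10 macrophage and monocyte symbols (Emr1 is an older one for Adgre1) 8 had a probe set and 7 were tested. Of these 2 fell (Csf1r, in 1 of its 3 tested probe sets, and Cd14) and 1 rose (Cd68). Their sums were 5491 to 7165 in controls and 4751 to 6471 with IGF-1. The median difference of these markers was -0.22, and 0.02 with scaling to hybridization controls. The calls of Ltf and Cd68 were each lost when the second IGF-1 array was left out (adjusted p = 0.052 in both), and that of Cd14 held only when the first control array or the third IGF-1 array was left out. With scaling to hybridization controls Ltf (-0.31, adjusted p = 0.087) and Cd14 (-0.55, adjusted p = 0.063) did not pass. Marker counts stand beside 7.05% of all genes called higher and 8.05% called lower. All 6 T cell markers with a probe set lay below the filter, as did 2 of 4 erythroid and 5 of 7 stromal and endothelial markers, and none of the 4 tested in those lists passed. No marker was listed at 0. In such bulk RNA, fewer cells of a type and less RNA per cell cannot be told apart, and the part of the marker shifts in the results for the inhibitors was not tested.

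Correlations of log2 values were 0.978 to 0.984 between arrays of 1 group and 0.956 to 0.965 between groups. No array stood apart from its group by these values.

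**Figure D5:**
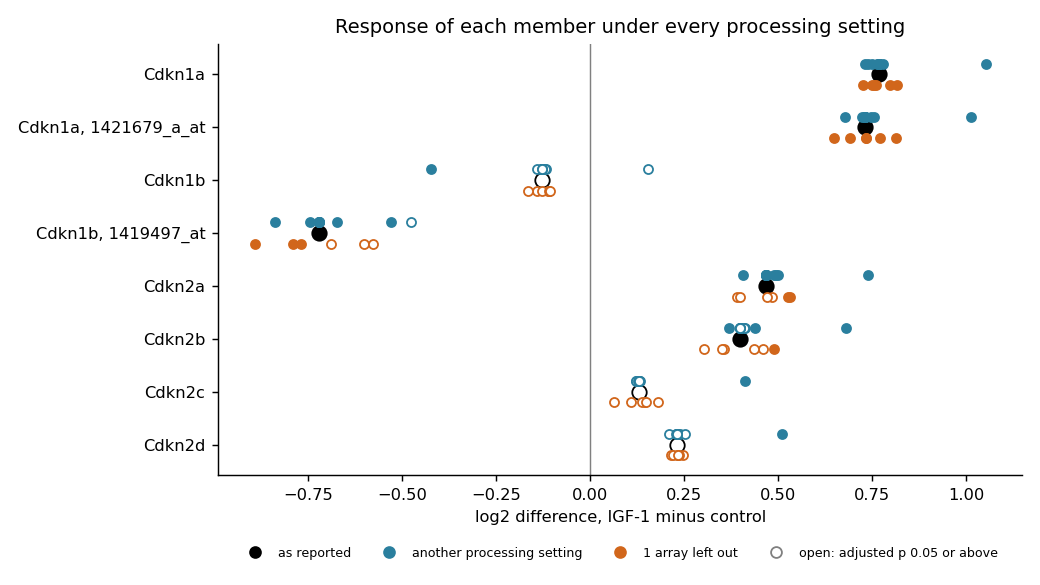
Log2 difference (IGF-1 minus control) of each tested member as reported (black), under another processing setting (blue, upper row) and with 1 array left out (orange, lower row). Open circles are values whose adjusted p was 0.05 or above. The rightmost blue point of each row is the scaling to hybridization controls (1.05 for Cdkn1a), and the lone blue point of Cdkn1b at -0.42 is the mean of its probe sets.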

How the data were processed

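Transcripts of 3 control and 3 IGF-1 samples were measured on 1-colour Affymetrix arrays. The deposited values are linear intensities. Per the submitters' processing notes the authors used MAS5 and GCOS. Their versions were not stated in those notes. The trimmed mean (2% off each end) was 150.1 in every array, so the authors had scaled them. Medians were 49.96 to 55.4. Per the labels' protocols, RNA was primed with oligo-dT, which weights signals to 3′ ends.

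The test used log2(signal + 15.6), where 15.6 is the 25th percentile over all arrays, after leaving out 64 control probe sets and those with a mean at or below the median (53.6). IGF-1 was compared with control by limma 3.58.1 in R 4.3.3 (lmFit, eBayes with intensity trend, two-sided, Benjamini-Hochberg over 11313 probe sets, threshold 0.05). The fit was tested on simulated data. Pairs of members were compared by exact permutation tests in scipy 1.17.1. Names came from the platform annotation: 20380 probe sets carried 1 symbol, 691 several (not used) and 1555 none. Identifiers of 20351 matched RefSeq of GRCm38.p6 and changed 0 symbols. Promoters of 6 of the 7 members were in the RefSeq promoter table.

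Members, lists and tests were chosen with earlier results of these data known. All member probe sets are named. Of other genes, the rule was to name the list members with the smallest p (up to 4 per list) and those a result turns on. The nearest neighbours and the 3 most similar profiles were to be named as well. Further list members were named after their values were seen, and the p19Arf and marker lists were named only in part. Alternatives covered the pseudocount, filter, normalization, eBayes settings, cross-hybridizing probe sets, probe set means per gene, a block for replicate number, and each array left out.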

Additional observations from a re-analysis of the deposited data

How the results depend on the processing

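Cdkn1a, in both probe sets, kept its direction and its call under all alternatives run, with log2 differences of 0.65 to 1.05. Signs of the 15 differences between members did not change under any alternative run. With no filter, 448 probe sets were called higher and 498 lower, with 2 and 0 of the members among them. There the dimmer Cdkn1b probe set (-0.72, adjusted p = 0.081), Cdkn2a (0.47, adjusted p = 0.055) and Cdkn2b (0.40, adjusted p = 0.10) kept their values and lost their calls, with more probe sets tested and other moderated standard errors, and 1 transcription regulator was called lower. Cdkn2b also lost its call with the filter at the 25th percentile (0.40, adjusted p = 0.064), quantile normalization (0.41, adjusted p = 0.050) and no intensity trend (0.40, adjusted p = 0.073). With scaling to hybridization controls 2740 probe sets were called higher and 242 lower. The brighter Cdkn1b probe set then turned to 0.15 and the dimmer lost its call (-0.48), leaving 0 member probe sets called lower, and Cdkn2c (0.41) and Cdkn2d (0.51) passed. Among pocket proteins and E2F factors 4 were then higher and 0 lower, and among transcription regulators 2 and 1. Cyclins and CDKs called higher were 6 with that scaling, and 3 with no filter. The mean of its probe sets gave Cdkn1b a call at -0.42 (adjusted p = 0.027). A filter at the 70th percentile removed its dimmer probe set, leaving 0 member probe sets called lower.

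Under the other settings list counts moved by 1 or 2 genes: pocket proteins and E2F factors called higher were 2 with quantile normalization and with array weights, transcription regulators called higher were 1 with quantile normalization and without intensity trend, and turnover genes called lower were 1 with the filter at the 70th percentile, with array weights and without cross-hybridizing probe sets. With the mean of probe sets 2 turnover genes were higher and 2 lower. Cyclins and CDKs called higher were 3 with the filter at the 70th percentile and 5 with quantile normalization. Transcription regulators called lower were 4 without cross-hybridizing probe sets. They were 2 with the filter at the 25th percentile, quantile normalization, no intensity trend or the mean of probe sets. The cause was not tested.

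The replicate number as a block ended the Cdkn2b call (0.40, adjusted p = 0.062), made 2 pocket protein and E2F genes higher and changed no other member's call. Deviations of same-numbered arrays correlated at 0.12, -0.03 and 0.13, so the numbers were not taken as pairs, and not every array correlated best with its own number.

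With 1 array left out, 406 to 659 probe sets were called higher and 491 to 792 lower, with 2 to 4 and 0 to 1 member probe sets. Values ran from 0.39 to 0.53 for Cdkn2a, 0.30 to 0.49 for Cdkn2b and -0.89 to -0.58 for the dimmer Cdkn1b probe set. Cyclins and CDKs had 3 to 4 higher. Pocket proteins and E2F factors had 1 to 2 higher and 0 to 1 lower, turnover genes 0 to 1 higher and 0 to 2 lower, and transcription regulators 1 to 3 lower. With 3 arrays a group, the dimmer Cdkn1b probe set had the widest interval among the tested member probe sets, and Cdkn1c was too dim to be tested.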
